A study of Mus musculus with 6 samples.

Results

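The 4 miRNAs described here, mmu-miR-196a, mmu-miR-196b, mmu-miR-10a and mmu-miR-10b (below without the species prefix), are encoded inside the Hox clusters. They were taken by name, as every probe of a one-colour miRNA microarray whose systematic name equalled one of them, which gave 10 of the 1928 mouse miRNA probes and 4 of the 690 mouse miRNA names. The 6 arrays carried total RNA from cartilage cut by microdissection from the femoral growth plate, the cartilage in which the thigh bone lengthens, of C57BL/6 mice aged 12 days, and the labels name no mutant allele and no treatment. There were 2 arrays each for the proliferative zone, where chondrocytes divide, the prehypertrophic zone, where they leave the cell cycle, and the hypertrophic zone, where they enlarge next to vessels and forming bone. Each array received 100 ng of RNA pooled from 5 growth plates. The labels do not say which animals entered which pool, so that p-values measure only the spread between these 6 samples. The femur is a hindlimb bone, and no forelimb sample was analysed here, so that no statement on limb position can be drawn from these arrays.

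Hox genes encode transcription factors that give position along the body axis and along the limb, and their clusters also carry miRNA genes. A mature miRNA pairs with messenger RNAs mainly through its seed, bases 2 to 8, and lowers their stability or translation. miR-196 is known in mouse for an almost fully paired site in the Hoxb8 messenger RNA, which it directs to be cut, and it is a miRNA of posterior trunk and hindlimb. The miR-10 genes lie near Hoxb4 and Hoxd4, and miR-10b is known in human cells to repress HOXD10.

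The mature sequences are shown because the pairs within each family are nearly the same, which bears on what each probe can measure. They are the RefSeq entries on build GRCm38.p6 that carry the names of the members with the arm suffix 5p. The seed is in capitals and each sequence runs 5′ to 3′.
miR-196a: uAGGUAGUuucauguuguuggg
miR-196b: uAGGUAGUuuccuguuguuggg
miR-10a: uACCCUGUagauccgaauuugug
miR-10b: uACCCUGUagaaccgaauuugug
miR-196a and miR-196b shared 21 of 22 bases and differed by A12C, counted from 1 at the 5′ end with the base of miR-196a first. miR-10a and miR-10b shared 22 of 23 bases and differed by U12A, with the base of miR-10a first. Both differences lie outside the seed. Among 1679 mature mouse names in the RefSeq table, the seed AGGUAGU belonged to the 2 miR-196 miRNAs and to 0 others, and the seed ACCCUGU to the 2 miR-10 miRNAs and to 0 others. RNA of one member of a pair may reach the probes of the other, and how far it did was not tested.

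The mature miR-196a sequence is encoded at more than one place, by Mir196a-1 on the plus strand of chromosome 11 (chr11:96265187-96265208) and by Mir196a-2 on the plus strand of chromosome 15 (chr15:102973365-102973386). Both hairpins are given, with the mature arm in capitals, because a probe for the mature RNA cannot tell these sources apart.
Mir196a-1: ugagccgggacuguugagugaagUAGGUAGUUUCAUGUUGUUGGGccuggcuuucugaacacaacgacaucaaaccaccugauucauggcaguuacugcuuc
Mir196a-2: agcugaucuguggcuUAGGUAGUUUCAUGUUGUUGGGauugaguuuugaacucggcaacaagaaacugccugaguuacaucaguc
In the GRCm38.p6 gene table the nearest Hox genes on either side of Mir196a-1 were Hoxb13 and Hoxb9, within the span of the predicted gene Gm51876, and those around Mir196a-2 were Hoxc10 and Hoxc9. Mir196b, on the minus strand of chromosome 6 (chr6:52230129-52230150 for the mature arm), lay between Hoxa9 and Hoxa10, within the span of Gm52902. Mir10a, on the plus strand of chromosome 11 (chr11:96317186-96317208), lay within the span of Hoxb3, between Hoxb5 and Hoxb4. Mir10b, on the plus strand of chromosome 2 (chr2:74726074-74726096), lay within the spans of Hoxd3 and Hoxd4, with Hoxd8 and Hoxd1 as the next Hox genes outside them. The spans do not say whether these positions are exonic or intronic. The array files name build mm9 for their grid and give no position per probe, so these positions come from the RefSeq sequences alone.

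Both miR-196 miRNAs were detected in every zone, and both miR-10 miRNAs were detected in none. Each member had 20 spots per array, spread over 4 probes for miR-196a and over 2 probes for each other member. Over the 6 arrays all 235 unflagged spots of miR-196a and miR-196b were well above background by the scanner software's flag. Of the 230 unflagged spots of miR-10a and miR-10b, 0 carried that flag. The software's own call per miRNA was the same, with detection on 6 of 6 arrays for miR-196a and miR-196b and on 0 of 6 for miR-10a and miR-10b. Of all 690 names, 186 had their brightest probe well above background on all 6 arrays. The plot of detected spots shows the split between the families.

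**Figure D1:**
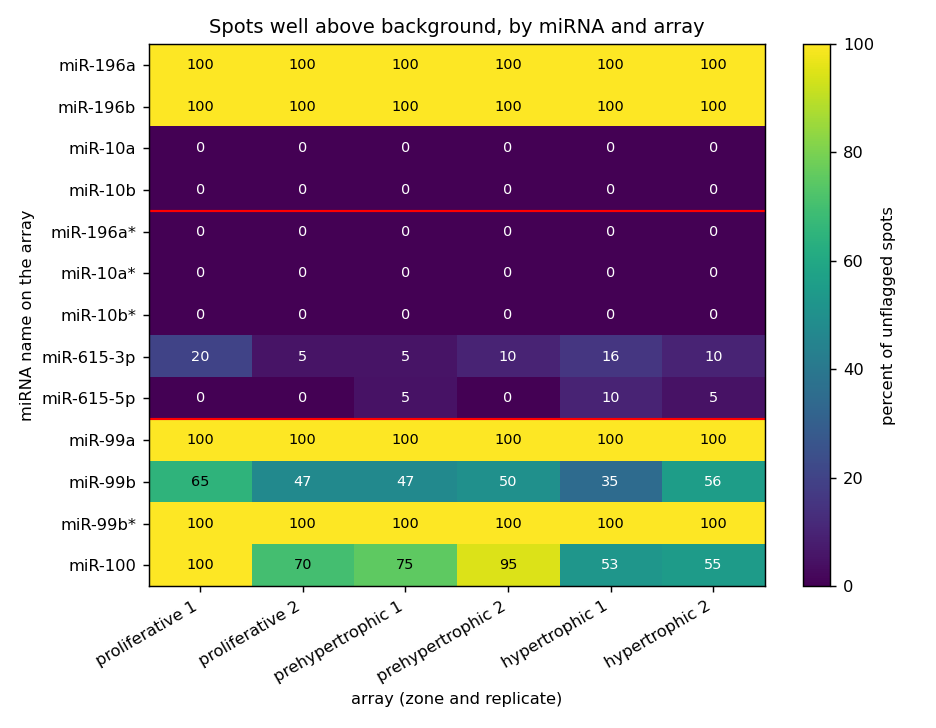
Percent of unflagged spots well above background for each miRNA name (rows) on each array (columns), with the 4 members above the first red line, other Hox cluster names between the lines, and the sequence relatives of miR-10 below. miR-196a and miR-196b stand at 100 on every array and miR-10a and miR-10b at 0 on every array.

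For miR-10, signals are given on a linear scale, as the mean processed signal of a probe divided by the array's scaling factor (scaled units). The highest scaled signal of any of the 4 miR-10 probes was 3.48 and 2.50 on the proliferative arrays, 2.75 and 0.869 on the prehypertrophic arrays and 5.67 and 4.59 on the hypertrophic arrays. The lowest probe signal that counted as well above background on the same arrays was 12.4 and 17.1, 12.9 and 12.8, and 12.5 and 11.3 scaled units, so that every miR-10 probe lay below the detection level of its own array. Some probe signals were negative after background subtraction, the lowest being -1.88 scaled units for a miR-10b probe on the second proliferative array. The brighter probe of each member stayed above 0 on every array, at 0.530 to 5.67 scaled units for miR-10a (A_54_P1423) and 0.869 to 2.50 for miR-10b (A_54_P2342). A difference between zones could not be measured for miR-10a or miR-10b at this signal over background. No fold is given, since no miR-10 probe was well above background in any zone. The authors' deposited value table has both names at the lowest value of each array.

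**Figure D2:**
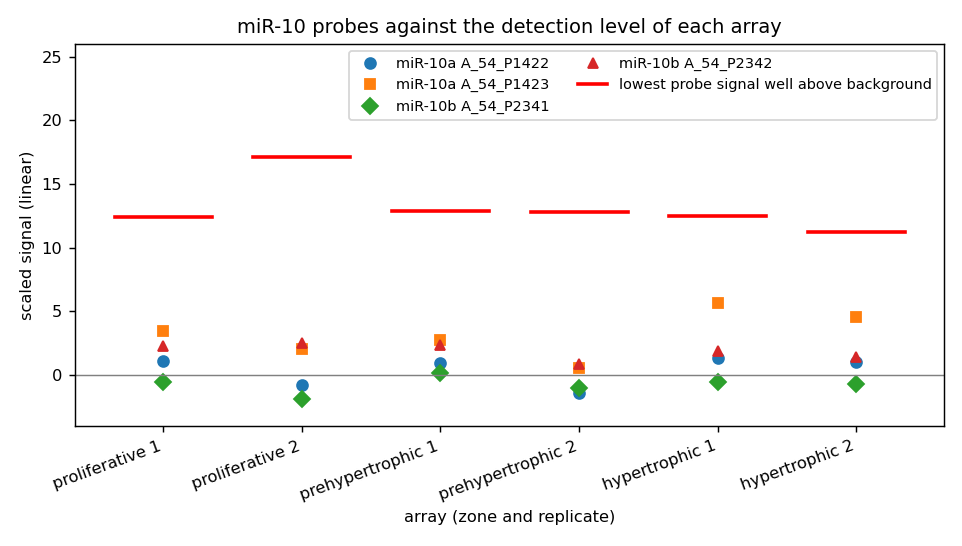
Scaled signal (linear units) of the 4 miR-10 probes (symbols) on the 6 arrays, with the lowest probe signal well above background on each array as a red bar. All probe signals lie at or under 5.67, below the bars at 11.3 to 17.1.

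The lack of miR-10 spots well above background stood beside measured signal of its sequence relatives miR-99a, miR-99b and miR-100. These relatives form a wider family with miR-10 but differ from it within the seed. They are printed here with the longest run shared with a miR-10 miRNA in capitals, beside that miRNA.
miR-10a, run shared with miR-100: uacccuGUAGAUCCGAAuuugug
miR-100: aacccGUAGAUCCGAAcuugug
miR-10b, run shared with miR-99b: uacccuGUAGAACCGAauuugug
miR-99b: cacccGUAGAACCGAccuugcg
The shared run was 11 bases between miR-10a and miR-100 and 10 bases between miR-10b and miR-99b. miR-100 and miR-99b were above background on all 6 arrays by at least 1 probe, while 0 miR-10 spots were.

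The star arms miR-196a*, miR-10a* and miR-10b*, the arms that are usually degraded, had 0 spots above background of 119, 119 and 117 unflagged spots. miR-615, encoded within the span of Hoxc5, had few detected spots: 13 of 117 spots of miR-615-3p and 4 of 119 spots of miR-615-5p were above background, and the brightest probe of miR-615-3p passed on 2 of 6 arrays, 1 proliferative and 1 hypertrophic. The software's own call per miRNA differed here, with detection of miR-615-3p on 6 and of miR-615-5p on 3 of 6 arrays. In all, 5 other Hox cluster names were on the array and 0 of them entered the tests between zones, which covered 226 miRNAs with a brightest probe that passed the background flag on each array of 1 zone or more. Of the 4 members, miR-196a and miR-196b passed that filter and miR-10a and miR-10b did not.

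miR-196a was lower in the hypertrophic than in the proliferative zone. Its brightest probe gave 56.6 and 60.3 scaled units on the hypertrophic arrays, against 142 and 97.8 scaled units on the proliferative arrays. Every hypertrophic array lay below both proliferative arrays, and the proliferative arrays were farther from each other than the hypertrophic ones. On the log2 scale miR-196a averaged 5.87 ± 0.06 in the hypertrophic and 6.88 ± 0.38 in the proliferative zone (SD, n = 2 each). The log2 difference was -1.01 (SE 0.27, 95% interval -1.61 to -0.41, limma adjusted p = 0.0368), a level 2.02-fold lower in the hypertrophic zone. In this comparison 33 of 226 miRNAs, or 14.6%, passed the threshold of 0.05 for the adjusted p, and 20, or 8.85%, passed as lower, so that 1 of the 2 tested members passing as lower cannot be called particular to them.

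miR-196b had the same direction without passing. It gave 34.4 and 36.0 scaled units on the hypertrophic arrays, against 68.3 and 45.6 scaled units on the proliferative arrays. These groups did not overlap either, and the first proliferative array was again the highest. The means on the log2 scale were 5.14 ± 0.05 in the hypertrophic and 5.80 ± 0.41 in the proliferative zone (SD, n = 2 each). The log2 difference was -0.66 (SE 0.28, 95% interval -1.28 to -0.05, limma adjusted p = 0.158). At an unadjusted p under 0.05 both members passed, beside 59 of 226 miRNAs or 26.1%. Both had a difference below 0, as had 50.4% of all tested miRNAs, and hypertrophic arrays entirely below the proliferative ones were found for both and for 61 of 226 miRNAs, or 27%. Whether miR-196a and miR-196b differed in the size of their difference was not tested.

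The call of miR-196a rested on single arrays and on the scaling. It was lost without the first proliferative array (log2 difference -0.74), without the first (-0.97) and without the second hypertrophic array (-1.06). Fewer of all 226 miRNAs passed in each of these fits too, so the loss was not particular to miR-196a. Without the second proliferative array the difference was -1.28 for miR-196a and -0.95 for miR-196b. Each of these fits leaves 1 array in a zone. Before scaling, the processed signals of miR-196a were 57.2 and 79.6 on the hypertrophic and 129 and 73.7 on the proliferative arrays, which overlapped. Without scaling the log2 difference was -0.53 (adjusted p = 0.280), and the median of all tested miRNAs shifted by 0.48 log2 units.

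**Figure D3:**
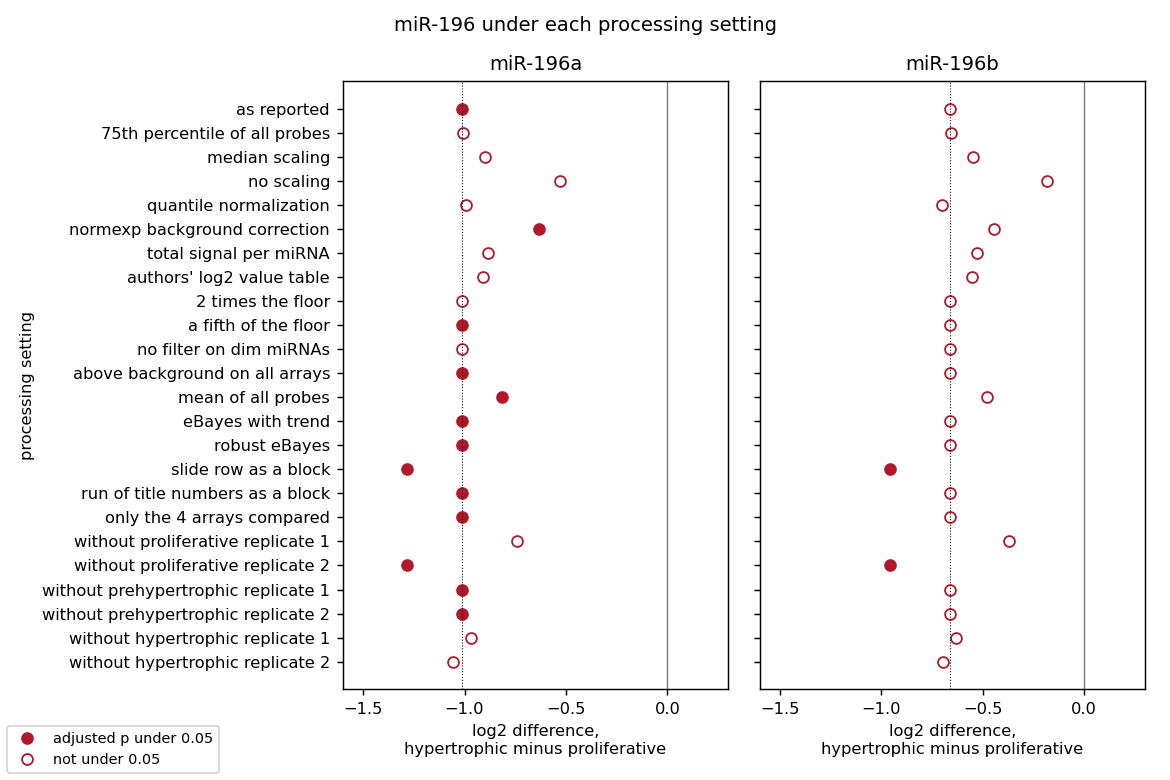
Log2 difference between the hypertrophic and proliferative zones (x axis) of miR-196a (left) and miR-196b (right) as reported and under each of 23 other processing settings (rows), filled where the adjusted p is under 0.05. All points lie below 0, from -1.28 to -0.53 for miR-196a and from -0.95 to -0.18 for miR-196b, and 12 and 2 of the 23 settings gave a call. Slide row as a block and leaving out the second proliferative array are the same fit here. Both settings that called miR-196b are that fit, which is also counted under both settings for miR-196a.

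The mean level of both miRNAs in the prehypertrophic zone lay between those of the outer zones, except that without scaling miR-196b was 0.0096 log2 units higher in the prehypertrophic than in the proliferative zone. miR-196a gave 83.3 and 84.8 scaled units there (6.39 ± 0.02 on the log2 scale, SD, n = 2), above both hypertrophic and below both proliferative arrays. miR-196b gave 42.6 and 46.3 scaled units (5.47 ± 0.08, SD, n = 2), above both hypertrophic arrays, while its second prehypertrophic array exceeded the second proliferative array. Neither step passed the threshold.

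Between the prehypertrophic and the proliferative zone the log2 difference of miR-196a was -0.49 (95% interval -1.09 to 0.11, limma adjusted p = 0.543). That of miR-196b was -0.33 (95% interval -0.94 to 0.28, limma adjusted p = 0.688). Here 0 of 2 members passed, beside 5 of 226 miRNAs or 2.21%, and the median of all tested miRNAs was -0.14. At an unadjusted p under 0.05 the counts were 0 of the 2 members and 29 of 226 miRNAs, or 12.8%. Both members had a difference below 0, as had 67.7% of all tested miRNAs, and miR-196a was the 1 member whose prehypertrophic arrays both lay below the proliferative ones, as for 24.3% of all. Under the other scalings that median shifted by 0.11 to 0.34 log2 units.

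Between the hypertrophic and the prehypertrophic zone the log2 difference of miR-196a was -0.53 (95% interval -1.13 to 0.07, limma adjusted p = 0.285), and that of miR-196b was -0.34 (95% interval -0.95 to 0.28, limma adjusted p = 0.439). Again 0 of 2 members passed, beside 3 of 226 miRNAs or 1.33%, and 0 of the 2 and 33 of 226 did so at an unadjusted p under 0.05. Both members were below 0 (51.3% of all tested miRNAs) and lower without overlap (32.7%). The F test over the 3 zones gave an adjusted p of 0.0972 for miR-196a and 0.295 for miR-196b, where 18 of 226 miRNAs or 7.96% passed. The order of the miR-196a levels was proliferative, prehypertrophic, hypertrophic with no overlap between arrays, but neighbouring zones were not told apart by the test, and all 3 comparisons rest on the same 6 arrays. The histogram of all tested miRNAs sets these differences against the rest.

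**Figure D4:**
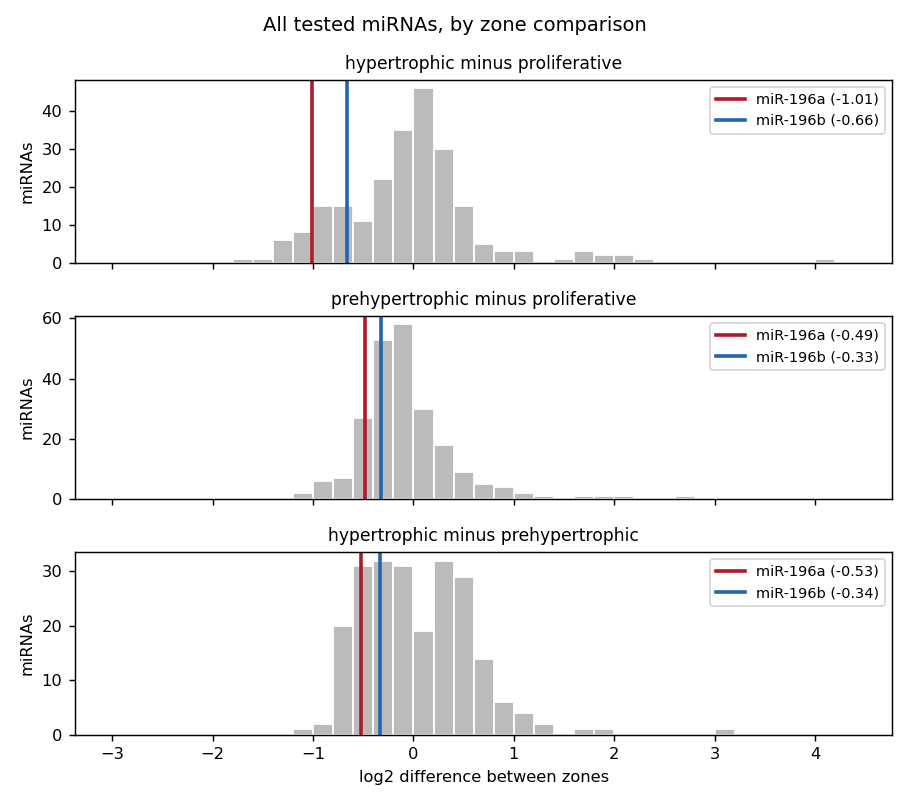
Number of miRNAs (y axis) by log2 difference between zones (x axis) for all 226 tested miRNAs in each of the 3 comparisons, with miR-196a in red and miR-196b in blue. Both lie left of 0 in each comparison, at -1.01 and -0.66, -0.49 and -0.33, and -0.53 and -0.34.

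All 6 miR-196 probes were lower in the hypertrophic than in the proliferative zone, each without overlap between arrays, as were 106 of 446 tested probes, or 23.8%. Fitted over all 446 tested probes, their log2 differences ran from -1.01 to -0.30, but without scaling A_54_P2703 turned to 0.19 and A_54_P2462 to 0.044. Of the 4 miR-196a probes, A_54_P2464 passed (-1.01, adjusted p = 0.0434), A_54_P2465 (-0.95, adjusted p = 0.0513) and A_54_P2463 (-0.86, adjusted p = 0.0697) did not, and A_54_P2462 differed least (-0.44, adjusted p = 0.383). For miR-196b the probe A_54_P2704 had a difference of -0.66 (adjusted p = 0.181) and A_54_P2703 one of -0.30 (adjusted p = 0.625). At the probe level 1 of 6 passed, beside 8.97% of the 446 tested probes, of which 18, or 4.04%, passed as lower.

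A_54_P2462 gave 30.8 and 27.9 scaled units on the hypertrophic arrays, 35.4 and 38.6 on the prehypertrophic arrays and 40.3 and 39.1 on the proliferative arrays, and these proliferative arrays were close to each other, unlike those of the other miR-196a probes. All 6 probes were also lower in the hypertrophic than in the prehypertrophic zone without overlap (28.3% of all tested probes), and 4 of 6 were lower in the prehypertrophic than in the proliferative zone without overlap (22%), with 0 of 6 passing in either comparison (0.897% and 2.24% of all tested probes passed). Within an array the spots of one probe had a coefficient of variation of 2.28% to 15.1% for miR-196a and of 2.13% to 12.4% for miR-196b.

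**Figure D5:**
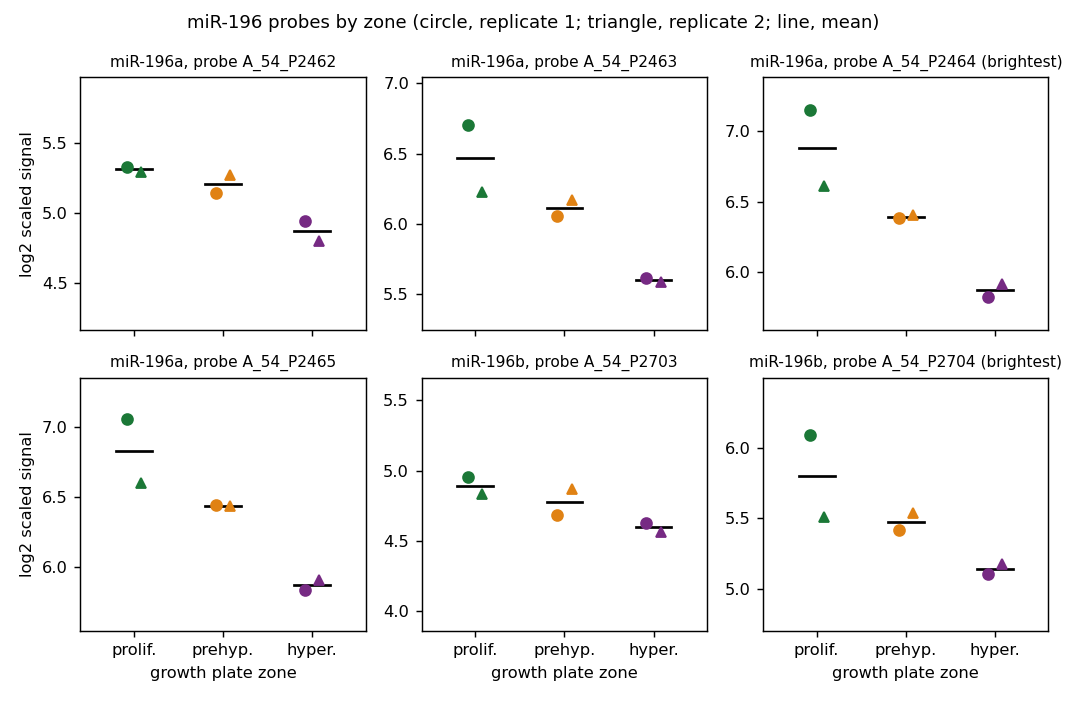
Log2 scaled signal (y axis, each panel spanning the same range of log2 units) of the 6 miR-196 probes on the arrays of the proliferative, prehypertrophic and hypertrophic zones (x axis), with a circle for replicate 1, a triangle for replicate 2 and a line for the mean. Each probe has its lowest mean in the hypertrophic zone, and the first proliferative array is the highest of all for every probe.

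Slide position and sample numbering could be separated from zone only in part. All arrays lay on 1 slide with 1 scan date, where row 1 held the hypertrophic pair and row 2 the prehypertrophic pair, while the proliferative arrays were split between the rows. Within row 1 the hypertrophic minus proliferative difference was -1.28 for miR-196a and -0.95 for miR-196b, and within row 2 the prehypertrophic minus proliferative difference was -0.22 and -0.04 for the same miRNAs. With slide row as a block the hypertrophic minus proliferative difference was -1.28 for miR-196a and -0.95 for miR-196b. Row 1 alone gives this difference, since the hypertrophic pair lay there with 1 proliferative array. For these zones the fit is the same as the one without the second proliferative array, so it adds no separate result. The hypertrophic minus prehypertrophic difference with slide row as a block was -1.06 and -0.92 for the same miRNAs without passing. No row held both of these zones, so that zone and row cannot be told apart within a row. The title numbers form the runs 13 to 15 and 16 to 18 with 1 array per zone each. Within them the hypertrophic minus proliferative difference was -1.24 and -0.79 for miR-196a and -0.92 and -0.41 for miR-196b, and the prehypertrophic minus proliferative difference of miR-196b was -0.68 and 0.02.

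Summed signals of markers of the cells in each zone differed in the same comparison. The 4 cartilage names fixed for this purpose (both arms of miR-140 and miR-455) were all above background on every array. Their scaled signals summed to 3910 and 4912 on the hypertrophic arrays, against 10367 and 6461 on the proliferative arrays. By name, miR-140 (log2 difference -0.76), miR-140* (-0.98) and miR-455 (-0.78) were lower in the hypertrophic zone, whereas miR-455* was higher (0.37). None of them passed (limma adjusted p = 0.138, 0.0565, 0.0592 and 0.194 in this order). For 8 blood and marrow names, of which miR-144, miR-142-3p, miR-142-5p, miR-150 and miR-155 were above background on no array, the sums were 266 and 290 on the hypertrophic and 27.0 and 42.8 on the proliferative arrays. Most of the hypertrophic sums was miR-451, at 226 and 254 (log2 difference 4.18, limma adjusted p = 1.91e-06). miR-223 did not pass (0.88, limma adjusted p = 0.0636), and miR-486 was above background on 1 proliferative and 1 hypertrophic array. For 2 endothelial names, of which miR-126-5p was above background on no array, the sums were 34.7 and 47.2 on the hypertrophic and 0 and 0 on the proliferative arrays, with signals under 0 counted as 0. For 5 skeletal muscle names, of which all but miR-208b were above background on no array, they were 120 and 118 on the hypertrophic and 157 and 165 on the proliferative arrays. On the prehypertrophic arrays the sums were 6824 and 6922 for cartilage, 45.2 and 47.8 for blood and marrow, 0 and 0 for endothelium and 163 and 121 for skeletal muscle. The part of these shifts in the miR-196 differences was not tested. In such pooled tissue, fewer cells with a miRNA and less of it per cell cannot be told apart.

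The miRNAs whose pattern over the 6 arrays was most like that of miR-196a, among 224 tested non-members, were let-7c (Pearson r = 0.991), miR-103 (0.990) and let-7a (0.989). For miR-196b they were miR-107 (0.991), miR-299* (0.988) and miR-23b (0.985). miR-196a and miR-196b correlated at 0.977 with each other, and the 6 miR-196 probes at 0.814 to 0.996. These values describe 6 arrays that share their scaling, and the likeness says nothing on shared control. In the hypertrophic minus proliferative comparison let-7c had a log2 difference of -0.90 (adjusted p = 0.0422), miR-103 one of -1.02 (adjusted p = 0.0422) and let-7a one of -0.87 (adjusted p = 0.0498), beside -1.01 for miR-196a. miR-107 had one of -0.85 (adjusted p = 0.0809), miR-299* one of -1.35 (adjusted p = 0.0213) and miR-23b one of -0.65 (adjusted p = 0.196), beside -0.66 for miR-196b. let-7c is printed because it contains the miR-196 seed letters, in capitals, 1 base further from its 5′ end.
miR-196a: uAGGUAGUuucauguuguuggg
let-7c: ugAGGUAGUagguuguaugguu
The longest run shared by these mature sequences is 7 bases, at positions 2 to 8 of miR-196a and 3 to 9 of let-7c. let-7a holds the same run at the same positions, so it is not particular to let-7c.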

How the data were processed

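Spot intensity was used as the authors deposited it: per the file headers, the software Feature Extraction 10.7.3.1 read the scans, subtracted background and flagged spots. The log2 value table deposited by the authors matched the scanner's summed signal of each miRNA, raised to 1 where lower, on the log2 scale after subtraction of 1 constant for each array, which settles its scale, centring and direction (column medians -4.40 and -4.25 in the proliferative, -4.46 and -4.45 in the prehypertrophic and -4.69 and -4.94 in the hypertrophic zone). Control spots and outlier spots (384 to 515 on an array) were dropped, and 0 spots were saturated. Spots of a probe were averaged, and a probe was taken as detected where over 50% of them were well above background. Arrays were scaled to the 75th percentile of the 342 probes (17.7%) well above background on all 6. A floor of 12.7 scaled units, the median over arrays of the lowest signal well above background, preceded log2, and the brightest probe stood for a miRNA. The brightest probe was taken by signal alone, and no abundance was compared between miRNAs.

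Zones were compared with limma 3.58.1 in R 4.3.3 (all 6 arrays, 3 residual degrees of freedom, Benjamini-Hochberg over 226 miRNAs or 446 probes), which was tested on simulated data. Arrays of one zone correlated at 0.954 to 0.976 over the tested miRNAs, those of different zones at 0.902 to 0.967. The lowest value within a zone was that of the proliferative pair. Each proliferative array correlated more with the prehypertrophic array of its own title run (0.967 and 0.966) than with the other proliferative array. The number of arrays limits the precision. The files hold no mean spot signal, so the normexp alternative (offset 50) used the median one. Named were the 4 members, the Hox cluster and miR-99 and miR-100 lists, and the 3 miRNAs most like each tested member by Pearson r. Members and lists were chosen with earlier results of these data known. Alternatives changed the scaling, background correction, signal, floor, filter, probe rule, spread model, slide row, title run and arrays used.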

Additional observations from a re-analysis of the deposited data

How the results depend on the processing

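Across 23 alternatives, the hypertrophic minus proliferative difference stayed below 0 for both miR-196a (-1.28 to -0.53) and miR-196b (-0.95 to -0.18), while the number of members past the threshold, 1 as reported, changed. It was 0 with the 75th percentile of all probes, median scaling, no scaling, quantile normalization, the total signal per miRNA, the authors' log2 value table, 2 times the floor and no filter on dim miRNAs, 2 with slide row as a block, and 0 to 2 when single arrays were left out. For miR-196a the adjusted p ran from 0.00697 to 0.308. For the outer zones, slide row as a block and leaving out the second proliferative array are the same fit, which enters the 23 under both settings. The run of title numbers as a replicate block gave a difference of -1.01 for miR-196a (adjusted p = 0.0289) and changed no call of a member. No label makes these runs pairs. In the neighbouring-zone comparisons 0 members passed under each of the 23. In the F test, where 0 passed as reported, 1 passed with normexp background correction, robust eBayes and slide row as a block, and 0 to 1 when single arrays were left out. The count over all 226 miRNAs, 33 for the outer zones (13 higher, 20 lower), was 11 with the 75th percentile of all probes (10 higher, 1 lower), 12 with median scaling (11 and 1), 15 without scaling (15 and 0), 19 with quantile normalization (11 and 8), 20 each with the authors' table and the mean of all probes, 8 with 2 times the floor and 1 of 690 without the filter, so that background shares move with these choices as the members' calls do. It was 45 with robust eBayes, slide row as a block and without the second proliferative array, 44 with normexp, 40 with 0.2 times the floor and the title run as a block, and 37 with the eBayes trend. It was 13 without the first proliferative array, and 2 and 1 without the first and the second hypertrophic array. For the prehypertrophic minus proliferative comparison it was 5 as reported and 0 to 14 over the alternatives, and for the hypertrophic minus prehypertrophic comparison 3 and 1 to 10. Single differences that passed in neither setting turned sign as follows. For the outer zones, A_54_P2703 was 0.19 and A_54_P2462 0.044 without scaling, and miR-99b* was -0.092 with normexp and -0.17 to 0.32 when single arrays were left out. For prehypertrophic minus proliferative, without scaling miR-196b and its probe A_54_P2704 were 0.0096, A_54_P2703 0.22, A_54_P2462 0.23 and miR-100 0.25. With the 75th percentile of all probes A_54_P2703 was 0.0052, A_54_P2462 0.018 and miR-100 0.033, with median scaling they were 0.019, 0.032 and 0.047, and with quantile normalization A_54_P2462 was 0.032 and miR-100 0.047. miR-100 was 0.26 with slide row as a block and -0.44 to 0.26 when single arrays were left out. The cause of these changes was not tested. Signal over background limits miR-10a, miR-10b and the star arms, for which no difference could be measured.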

Other observations

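Among the relatives of miR-10, both arms of the miR-99b hairpin were measured. miR-99b gave 13.6 and 15.6 scaled units on the hypertrophic arrays, against 34.4 and 25.6 scaled units on the proliferative arrays, a log2 difference of -1.03 (SE 0.27, limma adjusted p = 0.0325) that was called in 12 of 23 alternatives and was -0.23 (adjusted p = 0.636) with 2 times the floor. miR-99b* gave 65.4 and 49.0 scaled units on the hypertrophic arrays, against 45.3 and 63.5 scaled units on the proliferative arrays, a log2 difference of 0.08 (SE 0.30, limma adjusted p = 0.920). The arrays of miR-99b did not overlap and those of miR-99b* did, where 27% of all tested miRNAs were lower without overlap. The difference between the arms was not tested. Of the 4 relatives on the array, all tested, 1 passed as lower and 3 did not pass in this comparison. Of all 226 tested miRNAs 33, or 14.6%, passed and 20, or 8.85%, passed as lower. The count therefore cannot be called particular to the relatives. miR-100 had a log2 difference of -0.69 (adjusted p = 0.159), and miR-99a, whose level was highest in the prehypertrophic zone, one of 0.41 (adjusted p = 0.462).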
